A study of Mus musculus with 4 samples.

Results

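Msx1, Msx2 and Dlx1 to Dlx6 are homeobox genes of the NK-like class. They were listed by name, with earlier results of these data known but no measured value in the rule, and they make up 8 of the 37620 gene identifiers counted in this RNA‐seq series. All 8 identifiers were found, and 7 of the 8 genes reached 1 CPM in at least 1 of the 4 libraries. The exception was Dlx1. CPM is the count of read pairs per 1000000 after TMM scaling of the library size.

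The series asked how signaling inputs move mouse embryonic stem cells (mESCs) out of pluripotency, and each condition is represented here by 1 library. The 3 mESC libraries came from the R1 line, kept in serum‐containing medium without feeder cells and collected at day 2. The 2i−L culture received the GSK3 inhibitor CHIR99021 (3 µM) and the MEK inhibitor PD0325901 (1 µM) in the absence of LIF. 2iJ had the same inhibitors plus a JAK inhibitor (2 µM). 2iJ+B−A had the 2iJ inhibitors plus BMP4 (10 ng/ml) and an ALK5 inhibitor (10 µM), which blocks Activin and Nodal receptor signaling. All 3 mESC cultures thus carried both 2i inhibitors, and BMP4 was never added without the ALK5 inhibitor. The TSC library came from the F4 trophoblast stem cell line, whose label also reads day 2. For TSC culture the paper refers to an earlier protocol, and no inhibitor or BMP4 dose is listed for this library. Each cell type is 1 line with culture conditions of its own, so line, culture conditions and cell type cannot be told apart.

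Msx and Dlx proteins bind DNA through a homeodomain that prefers TAAT-containing sites. Msx proteins act mainly as repressors and Dlx proteins mainly as activators, and members of both families can bind each other. Msx1 and Msx2 are classical targets of BMP signaling in the limb bud, the tooth germ and the border of the neural plate. The Dlx genes lie in convergent pairs, Dlx1 with Dlx2, Dlx3 with Dlx4 and Dlx5 with Dlx6, and the genes of a pair usually share enhancers. In the placenta, Dlx3 is needed for the labyrinth, where it works in the same lineage as Gcm1.

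The libraries held between 33913984 and 36964392 counts on genes, and 3 counts corresponded to between 0.0799 and 0.0902 CPM. With 1 library per condition no difference has a replicate check and no p‐value is given. Intervals of levels are exact Poisson intervals and intervals of ratios are Clopper–Pearson intervals, all at 95% and covering counting error only. A fold is the ratio of CPM values, whereas a log2 ratio was taken after adding 0.5 CPM and therefore understates the change of low genes. A gene among the 14263 with at least 1 CPM somewhere was called higher or lower where its log2 ratio was at least 1 in size and its counting interval lay on one side of 0. In bulk RNA, fewer cells that express a gene and less RNA per cell cannot be told apart. The embryonic stem cell marker list (8 genes) summed to 4218, 3531 and 2396 CPM over the 3 mESC libraries (order 2i−L, 2iJ, 2iJ+B−A) and to 536 CPM in TSC, and the trophoblast stem cell list (7 genes matched) to 34.3, 37.6, 251 and 1119 CPM. Both labelled cell types thus carried their own markers.

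The homeobox is where these genes resemble each other most, so it is shown for the 3 genes with the largest log2 ratios between 2iJ+B−A and 2iJ, as coding sequence of the NCBIM37 transcripts. Capitals mark the 4 codons of the WFQN motif in the recognition helix of the homeodomain, which reads the DNA.
Msx2 (chr13:53563739-53563918, minus strand): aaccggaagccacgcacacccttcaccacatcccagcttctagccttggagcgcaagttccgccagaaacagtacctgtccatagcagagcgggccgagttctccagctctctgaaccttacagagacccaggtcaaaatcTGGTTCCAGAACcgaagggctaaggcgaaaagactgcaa
Dlx2 (chromosome 2, minus strand, in 2 exon blocks): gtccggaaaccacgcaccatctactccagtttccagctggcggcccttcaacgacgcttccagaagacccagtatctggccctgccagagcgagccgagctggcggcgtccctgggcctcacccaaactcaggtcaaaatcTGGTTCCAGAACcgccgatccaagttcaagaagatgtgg
Dlx3 (chromosome 11, plus strand, in 2 exon blocks): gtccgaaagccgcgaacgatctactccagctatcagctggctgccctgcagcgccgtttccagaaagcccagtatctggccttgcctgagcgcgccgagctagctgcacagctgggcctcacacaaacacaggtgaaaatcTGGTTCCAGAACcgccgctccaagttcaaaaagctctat
The 180 bases lie in 1 exon in both Msx genes. In all 6 Dlx genes an intron divides them into blocks of 132 and 48 bases, so that the WFQN codons fall on the second side of that boundary. Msx1 and Msx2 shared 82.2% of homeobox bases, Dlx2 and Dlx3 81.7%, and Msx2 and Dlx4, the least alike of all pairs, 54.4%. The longest run of identical bases between transcripts of different members was 44 bases, a TC repeat in Msx2 and Dlx6, against reads of 126 bases. No stretch of at least 100 bases of any member transcript matched another place in the genome at 90% identity or more, so the counts of the members were not shared with a close copy at that limit.

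Msx2 (ENSMUSG00000021469, chr13:53562250-53568443, minus strand of NCBIM37) had the highest level of the 8 genes per kb of exon in all 4 libraries. Its counts were 326 in 2i−L, 613 with the JAK inhibitor (2iJ), 2878 with BMP4 added (2iJ+B−A) and 1008 in TSC. In CPM these were 9.80, 17.9, 76.6 and 28.7. The order was 2i−L, 2iJ, TSC and 2iJ+B−A, and no neighbours in that order had overlapping intervals. Msx2 is best known from skull bone and from skin appendages, and in this series it was above 1 CPM everywhere.

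Msx1 (ENSMUSG00000048450, chr5:38211724-38215822, minus strand), the close relative of Msx2 with roles in tooth and palate, counted 18 read pairs in 2i−L, 126 in the 2iJ library, 555 in 2iJ+B−A and 109 in TSC. Its levels were 0.541, 3.67, 14.8 and 3.11 CPM. The 2i−L library was lowest and 2iJ+B−A highest, while the intervals of TSC (2.55 to 3.75 CPM) and 2iJ (3.06 to 4.37 CPM) overlapped.

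Dlx3 (ENSMUSG00000001510, chr11:94981403-94986610, plus strand), the placental and epidermal member, had 51 counts in 2i−L, 37 under 2iJ, 695 under 2iJ+B−A and 992 in TSC. These were 1.53, 1.08, 18.5 and 28.3 CPM. The libraries thus fell into a low pair, 2i−L and 2iJ with overlapping intervals, and a high pair in which TSC was above 2iJ+B−A with separate intervals. Its partner Dlx4 (ENSMUSG00000020871, chr11:95001770-95007577, minus strand) showed the same split into a low and a high pair at much lower levels, with 4, 5, 33 and 47 counts or 0.120, 0.146, 0.878 and 1.34 CPM. For Dlx4 the intervals within each of those pairs overlapped.

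Dlx2 (ENSMUSG00000023391, chr2:71381466-71384811, minus strand), known from forebrain interneurons and the branchial arches, was seen almost only in 2iJ+B−A. It had 3 counts in 2i−L, 6 under 2iJ, 124 under 2iJ+B−A and 4 in TSC, or 0.0902, 0.175, 3.30 and 0.114 CPM. Dlx5 (ENSMUSG00000029755, chr6:6827805-6832085, minus strand), a regulator of bone and jaw development, followed with 3, 15, 92 and 4 counts, or 0.0902, 0.437, 2.45 and 0.114 CPM. For both genes 2iJ+B−A stood above the other 3 libraries, whose neighbouring intervals overlapped.

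Their partners behaved differently. Dlx6 (ENSMUSG00000029754, chr6:6813334-6818568, plus strand), which acts with Dlx5 in the lower jaw, had 2, 6, 42 and 37 counts in the same library order, or 0.0601, 0.175, 1.12 and 1.05 CPM. The intervals of 2iJ+B−A and TSC overlapped for Dlx6, whereas those of Dlx5 did not. Dlx1 (ENSMUSG00000041911, chr2:71366170-71372038, plus strand), the forebrain partner of Dlx2, had 3, 6, 13 and 10 counts, at most 0.346 CPM. It did not enter any call, and the intervals of neighbouring libraries overlapped throughout.

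**Figure D1:**
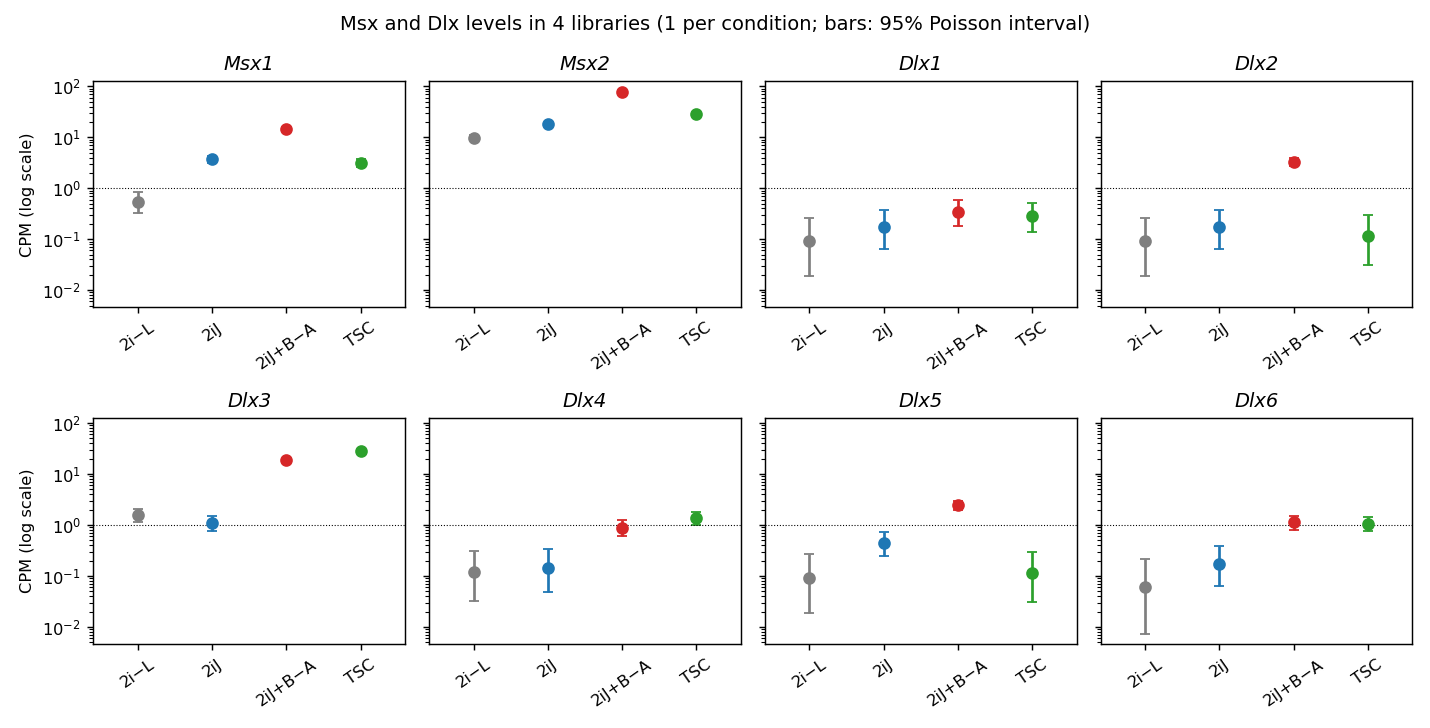
Level of each Msx and Dlx gene in CPM (log axis) in the 4 libraries, with bars for the 95% Poisson interval of the count and a dotted line at 1 CPM. Dlx2 and Dlx5 cross the line only in 2iJ+B−A, Dlx4 only in TSC, and Dlx3 is highest in TSC at 28.3 CPM.

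Set on 1 scale per kb of exon, the 8 genes summed to 5.03 CPM per kb in 2i−L, 10.1 under 2iJ, 49.5 under 2iJ+B−A and 25.04 in TSC. Msx2 made up 79.4%, 72.0%, 63.0% and 46.7% of that sum in the same order. Dlx3 made up 11.6%, 4.05%, 14.2% and 42.8%. The sum of the 8 genes was therefore mostly Msx2 in the mESC libraries, and mostly Msx2 and Dlx3 in nearly equal parts in TSC. Msx1 contributed 18.8% in 2iJ and 15.4% in 2iJ+B−A, against 5.57% in 2i−L and 6.41% in TSC. The other 5 genes together stayed small, and the largest single share among them was the 3.48% of Dlx5 in 2iJ+B−A.

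**Figure D2:**
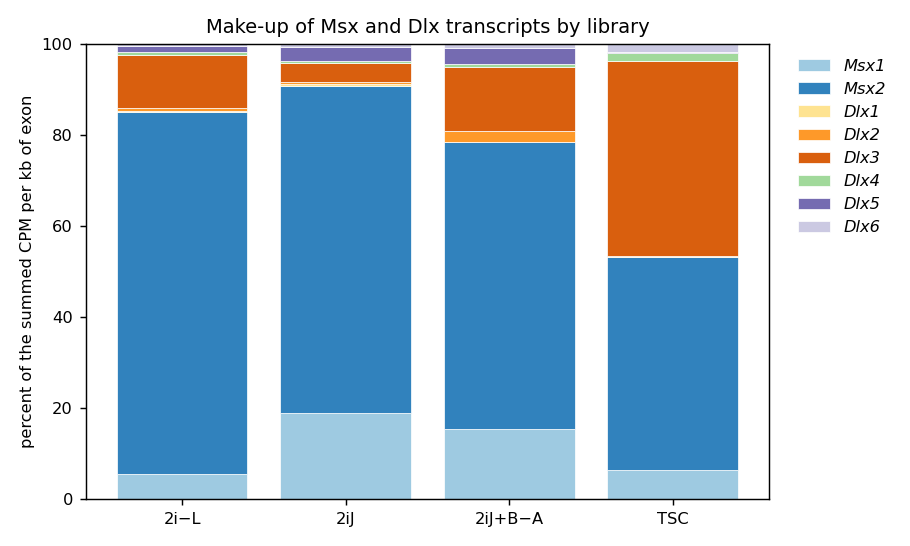
Share of each gene in the summed CPM per kb of exon of the 8 genes, as a percent, for each library. Msx2 fills 79.4% of the bar in 2i−L and 46.7% in TSC, where Dlx3 fills 42.8%.

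The balance within pairs differed between libraries. Values per kb divide by all annotated exon bases of a gene, which for Dlx1 are 5396 against 4111 in its longest protein‐coding transcript. The intervals do not cover that choice of length. Dlx5 exceeded Dlx6 per kb by 3.66 times (interval 2.51 to 5.40) in 2iJ+B−A, whereas in TSC the ratio was 0.180 (0.0467 to 0.502), so the order of the pair was turned. Dlx2 exceeded Dlx1 by 18.0 times (10.17 to 34.8) in 2iJ+B−A, and in TSC the ratio was 0.756 (0.173 to 2.62), an interval that includes equal levels. Dlx3 exceeded Dlx4 by 26.0 times in 2iJ+B−A and 26.1 times in TSC, with largely overlapping intervals (18.4 to 38.1 and 19.5 to 35.8). Msx2 over Msx1 was highest in 2i−L at 14.3 (8.89 to 24.4) and stood at 3.83 (3.16 to 4.68) under 2iJ, 4.09 (3.73 to 4.48) under 2iJ+B−A and 7.29 (5.97 to 8.96) in TSC.

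The 2iJ and 2i−L cultures, both without LIF, differed in the JAK inhibitor, with 1 library each. Msx1 was 6.78‐fold higher in 2iJ (interval 4.12 to 11.8), with a log2 ratio of 2.00 (1.56 to 2.401), which ranked 3 of the 14263 genes from the top. It was the only member called, beside 1.23% of all genes called higher and 0.918% called lower. Msx2 was 1.82‐fold higher (1.59 to 2.09), and its log2 ratio of 0.83 did not reach the call. Dlx5 had 15 counts against 3, a ratio of 4.84 with a wide interval (1.37 to 26.1) and a log2 ratio of 0.67. The remaining tested Dlx genes had log2 ratios between −0.37 (Dlx3) and 0.27 (Dlx6), each with an interval that spans 0. The median over all genes was 0.00.

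The 2iJ+B−A and 2iJ cultures differed in BMP4 together with the ALK5 inhibitor, with 1 library each. Between them all 7 tested members were called higher, beside 5.81% of all genes called higher and 3.17% called lower. Dlx2 and Dlx5 reached 1 CPM only in 2iJ+B−A, so their passing the filter and their call are not independent. Dlx4 passed through TSC alone and Dlx6 through both of these libraries, and Msx1, Msx2 and Dlx3 were above 1 CPM in 2iJ itself. Dlx3 rose 17.2‐fold (12.3 to 24.6), a log2 ratio of 3.59 (3.24 to 3.93) and rank 9 of the 14263 genes. Msx2 rose 4.29‐fold (3.93 to 4.69), with a log2 ratio of 2.07 and rank 124. Msx1 rose 4.03‐fold (3.31 to 4.93), with a log2 ratio of 1.87 and rank 176. Both Msx genes thus changed by about the same factor, and their intervals overlapped. Dlx2 rose 18.9‐fold (8.44 to 52.5) from 6 counts, with a log2 ratio of 2.49. Dlx6 rose 6.40‐fold (2.71 to 18.4), Dlx4 6.03‐fold (2.34 to 19.8) and Dlx5 5.61‐fold (3.23 to 10.4), with log2 ratios of 1.26, 1.09 and 1.65. These folds have wide intervals because their 2iJ counts were 6, 5 and 15. Dlx1 was not tested, and its ratio of 1.98 had an interval of 0.702 to 6.35. The calls of Dlx4 and Dlx6 were lost with a pseudocount of 1 CPM, and that of Dlx4 also with the unstranded count.

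**Figure D3:**
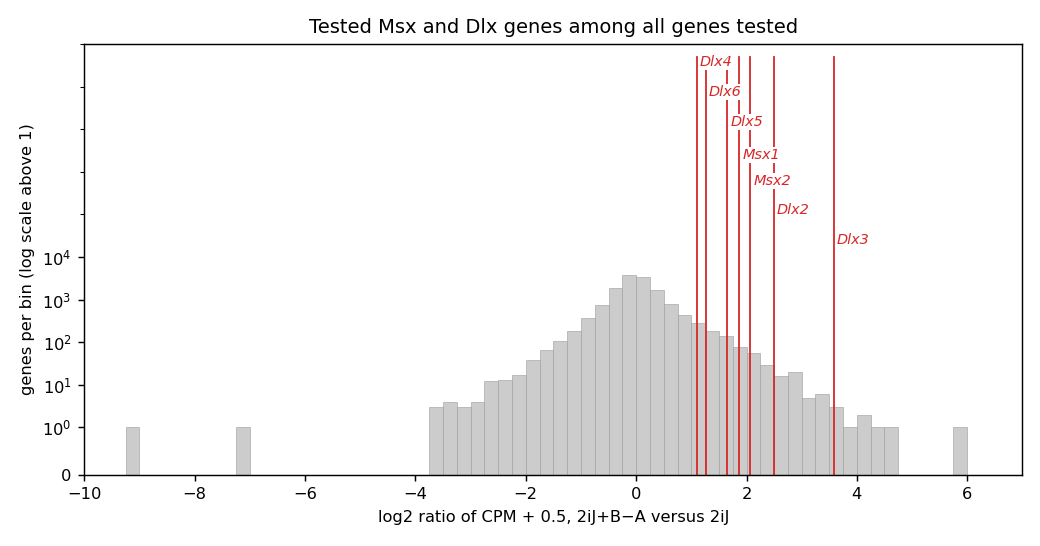
Histogram of the log2 ratio of CPM + 0.5 between 2iJ+B−A and 2iJ for the 14263 genes tested (genes per bin, log axis above 1), with red lines at the 7 tested members. The members lie between 1.09 (Dlx4) and 3.59 (Dlx3), while the median of all genes is 0.00.

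Against 2i−L in place of 2iJ, the same library gave log2 ratios of 3.88 for Msx1 (27.3‐fold, 17.1 to 46.4), 2.90 for Msx2 (7.82‐fold) and 3.22 for Dlx3 (12.1‐fold), beside 7.93% of genes called higher and 4.52% called lower. Msx1 was thus called higher in both steps. Dlx3 was called higher in the second step, and its ratio in the first was 0.703 (0.447 to 1.09).

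BMP receptors pass the signal through SMAD1, SMAD5 and SMAD9, which enter the nucleus with SMAD4 and bind GC‐rich elements, with GGCGCC as the standard form and GGAGCC as a variant, and the SMAD box GTCT. The sequence TAATTG is a core site that Msx and Dlx proteins bind themselves. These motifs were searched on both strands in the 250 bases before the transcription start. The set of RefSeq windows (GRCm38.p6) available here held Msx1, Msx2, Dlx1 and Dlx2, 4 of the 8 genes. Dlx3, Dlx4, Dlx5 and Dlx6 were not in that set. All 4 windows in that set are shown, whatever the level of the gene. Any part of these motifs in the levels was not tested. Capitals mark each match, read on the strand of the gene, and GRCm38.p6 positions differ from the NCBIM37 positions given for the genes.
Msx1 (chr5:37824586-37824835, minus strand, GRCm38.p6): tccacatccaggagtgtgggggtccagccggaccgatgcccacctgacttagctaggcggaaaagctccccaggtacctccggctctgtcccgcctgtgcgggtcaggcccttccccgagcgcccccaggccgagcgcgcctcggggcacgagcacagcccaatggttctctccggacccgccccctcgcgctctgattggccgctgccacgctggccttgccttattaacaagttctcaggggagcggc
Msx2 (chr13:53472781-53473030, minus strand, GRCm38.p6): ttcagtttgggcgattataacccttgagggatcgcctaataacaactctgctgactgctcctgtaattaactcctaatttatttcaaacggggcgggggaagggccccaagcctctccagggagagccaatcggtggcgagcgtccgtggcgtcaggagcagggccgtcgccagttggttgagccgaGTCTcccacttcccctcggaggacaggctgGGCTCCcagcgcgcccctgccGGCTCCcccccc
Dlx1 (chr2:71529195-71529444, plus strand, GRCm38.p6): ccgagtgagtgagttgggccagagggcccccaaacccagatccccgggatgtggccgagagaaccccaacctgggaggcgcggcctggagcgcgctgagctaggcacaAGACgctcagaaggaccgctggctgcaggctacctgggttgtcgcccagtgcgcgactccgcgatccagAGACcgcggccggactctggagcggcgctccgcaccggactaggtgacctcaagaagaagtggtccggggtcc
Dlx2 (chr2:71546755-71547004, minus strand, GRCm38.p6): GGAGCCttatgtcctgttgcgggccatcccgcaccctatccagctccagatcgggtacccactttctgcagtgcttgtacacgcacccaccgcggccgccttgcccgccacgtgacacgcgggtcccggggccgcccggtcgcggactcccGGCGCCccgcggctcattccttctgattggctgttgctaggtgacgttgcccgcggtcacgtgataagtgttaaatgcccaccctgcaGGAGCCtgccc
The Msx2 window held GGAGCC, in its reverse form, 33 and 12 bases before the start and GTCT 63 bases before it. The Dlx2 window held GGCGCC 99 bases and GGAGCC 250 and 11 bases before the start. The Dlx1 window held GTCT in its reverse form 142 and 73 bases before the start. The Msx1 window, upstream of a gene that rose 4.03‐fold, held none of these letters, which says nothing of sites elsewhere. Matches did not overlap each other, and TAATTG was in none of the 4 windows. Of 32851 promoter windows of that length, 9.59% held GGCGCC on either strand, 26.0% held the variant GGAGCC, 82.9% held the SMAD box GTCT and 7.17% held the homeobox core TAATTG. The 4 windows had 61.6% to 68.0% GC, against a median of 52.4%.

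Among 12 BMP response genes, of which 10 were tested, 7 were called higher in 2iJ+B−A than in 2iJ and 0 lower. Of all genes, 5.81% were called higher and 3.17% lower. The median log2 ratio of the list was 1.95, beside 0.00 over all genes. Id1, an inhibitor of basic helix–loop–helix factors, went from 8.01 to 91.6 CPM (log2 ratio 3.44). Id2 and Id3, of the same family, had log2 ratios of 2.98 and 2.54. Smad9, a BMP receptor substrate, had 1.99. The log2 ratios of Msx2 (2.07) and Msx1 (1.87) were near the median of this list, and that of Dlx3 (3.59) was above Id1. Of the 9 genes for BMP receptors and SMADs, 0 were called higher and 1 lower, the type I receptor Bmpr1b, from 6.67 to 0.985 CPM.

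The 40 NK‐like homeobox relatives are listed beside the members, with 17 tested. Only 7 relatives reached 1 CPM in 2iJ and 9 in 2iJ+B−A. Tested relatives below 1 CPM in both passed through another library and were too low here for an even contrast with the members. Of the 17 tested, 3 were called higher in 2iJ+B−A than in 2iJ and 1 lower, beside 5.81% and 3.17% of all genes. Their median log2 ratio was 0.05. Nkx6‐2 (2.03), Lbx1 (1.98) and Nkx6‐1 (1.51), regulators of spinal cord progenitors and neurons, were higher. Nkx1‐2, a gene of the caudal epiblast, was lower at −2.13. The log2 ratios of the 3 that rose lay within the range of the Msx and Dlx genes. Of 9 genes for known protein partners of Msx and Dlx, only the LIM homeobox gene Lhx2 was called (log2 ratio 1.04, from 0.612 to 1.78 CPM).

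Msx and Dlx genes are expressed in the non‐neural ectoderm and its border with the neural plate. Of 18 genes listed for these tissues, 15 were matched and 12 tested. Of these 12, 8 were called higher in 2iJ+B−A than in 2iJ and 0 lower, beside 5.81% and 3.17% of all genes. They were led by Gata2 (log2 ratio 3.33, from 23.1 to 236 CPM), the simple epithelial keratins Krt18 (2.31) and Krt8 (2.04), and Sox9 (1.44). In TSC these genes stood at 84.3, 1395, 883.5 and 4.70 CPM, so they are not particular to ectoderm. Of the 12 tested, 7 were called higher in TSC than in 2iJ and 5 lower, beside 19.4% and 17.6% of all genes. Tfap2a, Tfap2b and Tfap2c were the listed genes not matched. Of 12 forebrain and branchial arch genes that accompany Dlx genes in those tissues, 4 were tested, with 1 called higher, 0 lower and a median log2 ratio of −0.20.

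Markers of other cell types moved with the same comparison, in which 5.81% of all genes were called higher and 3.17% lower. Of the 7 trophoblast stem cell markers, 5 were called higher in 2iJ+B−A, led by Hand1 (log2 ratio 5.84), Esx1 (4.58) and Cdx2 (2.25), and 1 lower, Eomes (−1.78). Gcm1, a marker of labyrinth trophoblast, went from 5.62 to 28.0 CPM and was 0.399 CPM in TSC, while 4 of the 7 matched differentiated trophoblast markers had no count in 2iJ+B−A. Of the 6 tested endoderm markers, 4 were called higher (Gata6 2.57, Sox17 1.63, Cubn 1.42, Gata4 1.01), and the summed level of the list went from 18.4 to 41.1 CPM. The fibroblast list summed to 102 CPM in 2i−L, 186 under 2iJ, 301 under 2iJ+B−A and 17.0 in TSC, with Col1a1 lower (−1.997) and Pdgfra higher (1.86) in 2iJ+B−A. The smooth muscle actin gene Acta2, singled out after its values were seen, made up 51.8, 141.5, 258.8 and 0.0285 CPM of these sums. The other 11 genes summed to 50.5, 44.0, 41.95 and 17.0 CPM. For mesoderm, Foxf1a was higher (2.89) and T lower (−2.35), and the list stayed between 5.50 and 7.37 CPM in the mESC libraries. For neuroectoderm, Pax6 was lower (−1.86) and 0 markers were called higher. The part of these cell types in the levels of the Msx and Dlx genes was not tested.

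TSC were compared with 2iJ and with 2iJ+B−A to place the genes beside an established trophoblast line. Both comparisons share a library with the previous one, so their values are given side by side and not as independent results. Against 2iJ, Dlx3 was 26.2‐fold higher in TSC (18.9 to 37.5), Dlx4 9.20‐fold (3.67 to 29.6) and Dlx6 6.03‐fold (2.52 to 17.5), the 3 members called higher, beside 19.4% of all genes called higher and 17.6% called lower. Their log2 ratios were 4.19, 1.51 and 1.20, and Dlx4 passed the filter only through TSC. The call of Dlx6 was lost with a pseudocount of 1 CPM, which left 2 members. Msx2 was 1.61‐fold higher (1.45 to 1.78), below the call, and Msx1 did not differ beyond counting error (ratio 0.846, 0.649 to 1.10). Dlx5 was lower in TSC, at 4 counts against 15 (ratio 0.261, 0.0630 to 0.819), and was not called. Dlx2 had 4 counts against 6.

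Against 2iJ+B−A, Msx1, Msx2, Dlx2 and Dlx5 were lower in TSC, beside 16.2% of all genes called lower, and 0 members were called higher, beside 16.4%. Dlx2 and Dlx5 passed the filter only through 2iJ+B−A, so their calls here are not independent of it. Msx1 was 4.76‐fold lower (3.87 to 5.90) and Msx2 2.67‐fold lower (2.48 to 2.87). Dlx2 was 29.0‐fold lower (11.03 to 108) and Dlx5 21.5‐fold lower (8.12 to 80.6), each at 4 counts in TSC. Dlx3 was 1.53‐fold higher (1.39 to 1.69), short of the call, and the ratios of Dlx4 (1.52, 0.956 to 2.46) and Dlx6 (0.943, 0.589 to 1.503) had intervals that include 1. The point estimates of Dlx3, Dlx4 and Dlx6 in 2iJ+B−A and TSC thus lay within a factor of 1.53, with an interval up to 2.46 for Dlx4. The other 4 tested genes were highest in 2iJ+B−A and called lower in TSC. Dlx6 was also highest in 2iJ+B−A, but its intervals there and in TSC overlapped.

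**Figure D4:**
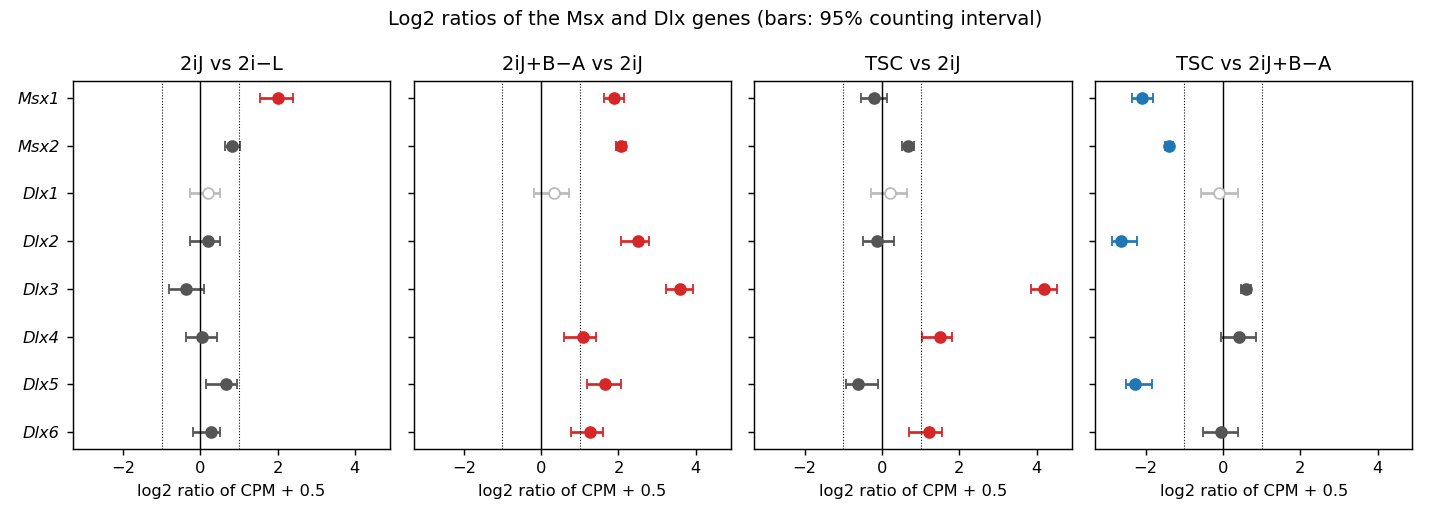
Log2 ratio of CPM + 0.5 for the 8 genes in the 4 comparisons, with bars for the 95% counting interval and dotted lines at −1 and 1. Red points were called higher, blue points lower, gray points were not called, and the open point of Dlx1 was not tested. The third panel shows Dlx3, Dlx4 and Dlx6 higher in TSC than in 2iJ, and the fourth shows Msx1, Msx2, Dlx2 and Dlx5 lower in TSC than in 2iJ+B−A.

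BMP response genes in TSC went in both directions. Of the 10 tested, 3 were called higher than in 2iJ and 2 lower, beside 19.4% and 17.6% of all genes. Id2 was at 446 CPM in TSC, and Id3 at 11.1 CPM against 17.0 CPM in 2iJ. Against 2iJ+B−A, 7 of the 10 were called lower and 2 higher (median log2 ratio −1.79), beside 16.2% and 16.4% of all genes. Between 2iJ and 2i−L, Id2 (log2 ratio 1.18) and Id3 (1.03) were the 2 BMP response genes called, both higher in 2iJ. The list median was 0.59, and 1.23% of all genes were called higher in that comparison. Id1 had 0.30 there.

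The genes around the members give a measure of whether a locus moved as a whole. Within 200 kb of the 8 genes lay 22 other protein‐coding genes, of which 15 were tested. Neither neighbour of Msx1 was among those tested. Between 2iJ and 2i−L 0 of the 15 were called in either direction. Between 2iJ+B−A and 2iJ, 3 were called higher and 1 lower, beside 5.81% and 3.17% of all genes, and all 4 lay at the Dlx3 and Dlx4 locus on chromosome 11. Samd14 (log2 ratio 1.41), the integrin gene Itga3 (1.23) and Ppp1r9b (1.03), which encodes spinophilin, were higher, and the collagen gene Col1a1 was lower (−1.997). Of the members there, Dlx3 (3.59) was above all of these neighbours, and Dlx4 (1.09) was below Samd14 and Itga3. At the other loci no tested neighbour was called in that comparison. Against 2iJ, 7 of the 15 were called higher in TSC and 3 lower, beside 19.4% and 17.6% of all genes.

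**Figure D5:**
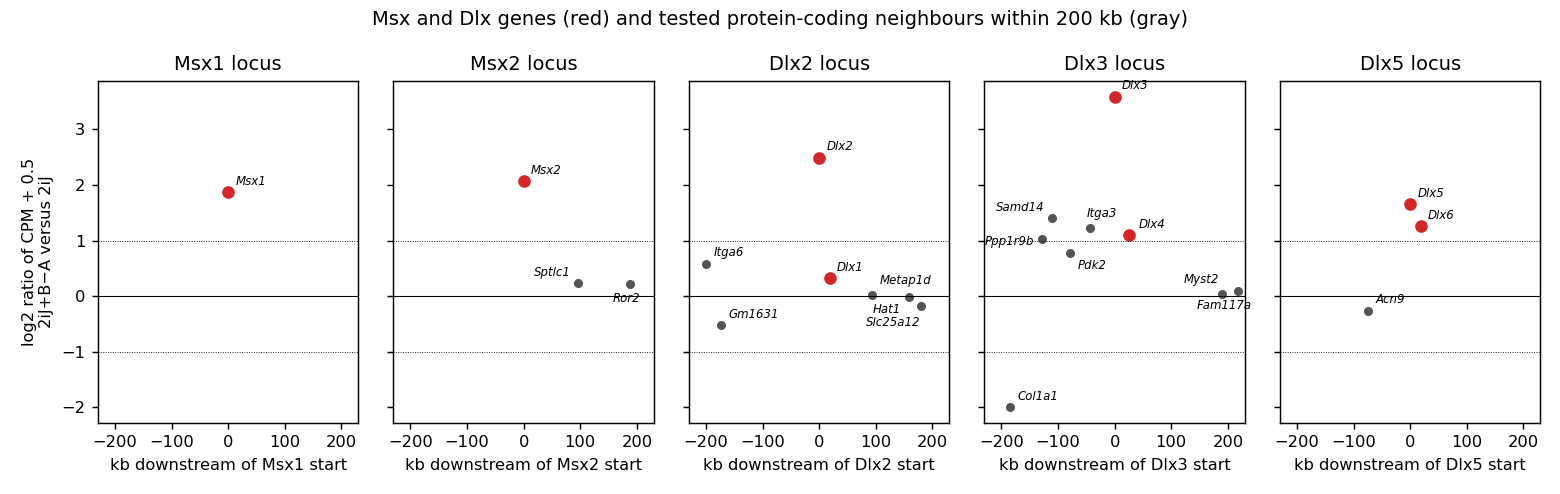
Log2 ratio of CPM + 0.5 between 2iJ+B−A and 2iJ plotted against the distance in kb between gene starts, counted along the strand of the gene named under each panel, for the Msx and Dlx genes (red, Dlx1 included although not tested) and tested neighbours (gray). The 3 neighbours above the dotted line at 1 and the 1 below −1 all lie upstream of Dlx3.

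Genes read from the opposite strand overlap 3 members, and the library kit keeps strand. A730090H04Rik, opposite Dlx4, had 1, 5, 36 and 112 counts in 2i−L, 2iJ, 2iJ+B−A and TSC and was called higher in 2iJ+B−A than in 2iJ (log2 ratio 1.18) and in TSC than in 2iJ (2.52). This is the same library order as for Dlx4. Dlx6os1, opposite Dlx6, had 0, 3, 16 and 26 counts and was not tested. Dlx1as, opposite Dlx1, had 0, 1, 0 and 0 counts, all below 3 counts, which correspond to 0.0799 CPM in 2iJ+B−A.

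The genes whose profile over the 4 libraries was most like that of a member were those at the smallest Euclidean distance between centred log2(CPM + 0.5) values, a description over 4 points. For Msx1 they were Itga4 (0.90), Dgkk (0.92) and Msx2 (0.96), so that Msx2 ranked 3 among all genes tested. For Msx2 they were Dgkk (0.16), Ldoc1 (0.26) and Fam38b (0.32), and Msx1, at the same distance of 0.96, ranked only 96. Dgkk, a diacylglycerol kinase gene, stood at 0.662, 1.54, 8.07 and 2.36 CPM. For Dlx3 they were Podxl (0.66), Car4 (0.66) and Wnk2 (0.72), and Podxl, a sialomucin of the cell surface, stood at 21.5, 27.9, 203 and 453 CPM. For Dlx2 they were Plxna4 (0.37), Fam70a (0.37) and Cited4 (0.37), and for Dlx5 Nexn (0.18), Grik3 (0.20) and Actg2 (0.22). For Dlx4 they were Gng12 (0.04), Hspa1b (0.07) and Dmrtc1b (0.08), and for Dlx6 Gprc5a (0.09), Vamp8 (0.14) and 1700017B05Rik (0.14). Within the members, Dlx5 lay nearer to Dlx2 (0.60) than to its partner Dlx6 (1.67), and Dlx4 nearer to Dlx6 (0.37) than to its partner Dlx3 (2.397). The pseudocount flattens the profiles of the lowest genes and brings them nearer to many others.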

How the data were processed

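RNA of 3 R1 mESC cultures and 1 F4 TSC culture was sequenced as paired 126‐base reads from a strand‐preserving poly‐A library. The authors trimmed reads with TrimGalore and cutadapt at a quality of 20 and mapped them to NCBIM37 with STAR 2.4.2a, and they deposited whole‐number counts of read pairs per gene without normalization (base calling with CASAVA 1.8.2, per the labels). The annotation release is not given in the sources used here. Their batch adjustment is not in the deposited counts. STAR counts read pairs with 1 mapping place, and 6.72% to 7.01% mapped to several.

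Groups came from the treatment and source labels, with 1 library each. The count on the strand of the library was used (column 4 of the table), 29.1 to 32.1 times the opposite strand, and it came to 33913984 to 36964392 per library. Rows that name no gene were left out, and 82.2% to 83.6% of listed read pairs fell on genes. CPM were scaled by TMM (edgeR 4.0.16, R 4.3.3), and genes with at least 1 CPM in 1 library were tested. With 1 library per group no model with replicates could be fitted. The call rule (log2 ratio of CPM + 0.5 of at least 1 in size, 95% Clopper–Pearson interval on one side of 0) covers counting error only and was tested on simulated counts. Read pairs are not independent molecules.

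The 8 genes and the 13 gene lists were chosen with earlier results of these data known. Named genes were all members, the 3 nearest profiles of each tested member, called neighbours and antisense genes, and from each list up to 4 called genes with the largest log2 ratio between 2iJ+B−A and 2iJ. Gata3, Zic1, Nanog and Nkx2‐1 each stand in more than 1 list. 1 called gene of these lists and the homeobox sequences of the other 5 members are not reported here. Homeobox positions were found in gencode vM1 transcripts, and matches elsewhere with blastn 2.17.0. Promoter windows are from RefSeq (GRCm38.p6). Alternatives were the unstranded count, DESeq2 1.42.0 size factors, total counts, other filters, pseudocounts and cutoffs, and 2i−L as the reference. The remaining steps ran in Python 3.11.15 (pandas 2.3.3, numpy 2.4.6, scipy 1.17.1) and figures were drawn with matplotlib 3.10.9.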

Additional observations from a re-analysis of the deposited data

Results flagged for a closer look

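Among the members and their antisense genes, counts on the strand opposite to a gene, which the comparisons did not use, were above 3 in at least 1 library for the members Msx2 and Dlx4 and for the antisense genes Dlx1as and A730090H04Rik. Msx2 had 19 in 2iJ+B−A, the library in which its own counts were highest, and 5, 3 and 4 in 2i−L, 2iJ and TSC. Dlx4 had 12 in TSC and 0, 0 and 4 in the mESC libraries, at a place where A730090H04Rik is read from the other strand, and A730090H04Rik had 5 in 2iJ+B−A and 5 in TSC on the strand of Dlx4. Dlx1as had 52 in 2iJ+B−A and 41, 33 and 29 in 2i−L, 2iJ and TSC on the strand opposite to its own, which is the strand of Dlx1, where Dlx1 itself had between 3 and 13 counts.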

How the results depend on the processing

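Of 76 counts of called members under the alternatives, 65 stayed within 1.5 times the count reported and 11 moved. The 65 include counts of 0 that stayed 0, and also a count of 7 that became 5. Of 176 log2 ratios of members, 147 stayed within their counting interval, 29 did not and 0 changed direction as called values. Other scalings moved the median gene by less than 0.1 on the log2 scale. Requiring 5 CPM in at least 1 library, which leaves fewer members, gave 3 called higher between 2iJ+B−A and 2iJ, 1 higher between TSC and 2iJ and 2 lower between TSC and 2iJ+B−A. A log2 ratio of at least 2 gave 3 and 1 for the first pair of these counts. A cutoff of 1.5‐fold gave 3 called higher between 2iJ and 2i−L (Dlx5 and Msx2 added), 1 lower between TSC and 2iJ (Dlx5) and 1 higher between TSC and 2iJ+B−A (Dlx3). A pseudocount of 0.1 CPM gave 2 higher between 2iJ and 2i−L (Dlx5 added) and 1 lower between TSC and 2iJ (Dlx5). With 2i−L as the reference, 5 members were higher in TSC, Msx1 and Msx2 added. With the unstranded count 6, and with a pseudocount of 1 CPM 5, members were called higher between 2iJ+B−A and 2iJ, and the latter gave 2 between TSC and 2iJ (Dlx6 lost). Leaving Acta2 out of the fibroblast list, chosen after seeing the data, changed its summed level between 2iJ and 2iJ+B−A from 186 and 301 CPM to 44.0 and 41.95 CPM. No paired analysis was possible because each condition had 1 library. Depth limits Dlx1, Dlx2, Dlx4, Dlx5 and Dlx6 most, since each had 15 counts or fewer in 2i−L and 2iJ. The spread between cultures cannot be measured here.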

Other observations

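Among the 17 tested NK‐like homeobox relatives, 9 were called higher and 5 lower in TSC than in 2iJ (median log2 ratio 1.19), beside 19.4% and 17.6% of all genes. Nkx1‐2 was at 39.7 CPM in 2i−L, 32.0 in 2iJ and 6.92 in 2iJ+B−A and had no count in TSC. Nkx6‐1 was at 0.0301, 0.0582, 1.09 and 0.940 CPM in 2i−L, 2iJ, 2iJ+B−A and TSC, a library order like that of Dlx6. Lbx1, at 0.391, 0.582, 3.78 and 0.171 CPM, was highest in 2iJ+B−A, as were Dlx2 and Dlx5. Nkx6‐2 stood at 2.35 CPM in 2i−L and 0.437 in 2iJ before its 3.33 CPM in 2iJ+B−A. These relatives passed the filter partly through the libraries in which they were high, so their counts are a description.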
